A study of Homo sapiens with 8 samples.

Results

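Expression of 10 genes of the JAK-STAT pathway and its feedback was examined in Reh cells transfected with active IRF5, active IKKβ, both or neither. The genes were the kinases JAK1 and JAK2, the transcription factors STAT3, STAT5A and STAT6, the feedback inhibitors SOCS1, SOCS2, SOCS3 and CISH, and the kinase gene PIM1. Every probe set annotated to exactly 1 of these symbols was taken, which gave 30 probe sets of the 41091 with a single symbol, and 10 of 19775 genes. The probe sets were taken by gene name, and the genes themselves were picked with earlier results of these data known. All 10 genes had at least 1 probe set, from 1 for STAT5A and PIM1 to 5 for JAK1, and probe sets of a gene share its transcript and are not separate evidence. Of the 30 probe sets, 19 had a mean level above the median of all probe sets and 11 did not, and no filter on level was applied.

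Reh is an established cell line of precursor B-cell acute lymphoblastic leukaemia origin. The 4 groups were cells given both IRF5-4D and IKKβ(EE), called the combination here, cells given IKKβ(EE), cells given IRF5-4D, and mock cells given control constructs, with 2 Affymetrix U133 Plus 2.0 arrays each. The submitters describe IRF5-4D and IKKβ(EE) as constitutively active variants of the transcription factor IRF5 and of the IκB kinase β, and the arrays as biological duplicates, numbered 1 and 3. Array titles begin with Reh1 or Reh3, and each group has 1 of each, so arrays of the same number may be paired across groups. The vectors, their promoters, the time to harvest and the share of cells transfected are not recorded in the labels, and all results come from this 1 cell line. Values are log2 RMA expression values, on which a difference of 1 is 2-fold. Levels of different probe sets are set against each other only to rank them as bright or dim, not as amounts of RNA.

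Cytokine receptors without kinase activity of their own carry JAK kinases, which phosphorylate STAT proteins when a cytokine binds. Phosphorylated STATs enter the nucleus, bind DNA at gamma-activated sites (GAS) and switch on genes that include the SOCS family, whose proteins then bind receptors or JAKs and stop the signal. In B cells this pathway carries signals of interleukins and interferons, and its overactivity, including loss of SOCS1, is known from Hodgkin and other B-cell lymphomas. IRF5 and NF-κB, which IKKβ activates, also take part in immune signalling, and STAT activation itself is a change of phosphorylation that arrays do not measure.

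Upstream sequences of SOCS1 and CISH are shown because both encode inhibitors of the same family and their arrays differed, as described below. The RefSeq table (GRCh38.p14) held start sites for 9 of the 10 genes in 17 windows, and the 250 bases before the annotated start are printed 5′ to 3′ in the direction of the gene. The SOCS1 window is chr16:11256205-11256454 on the minus strand, and the CISH window is chr3:50611775-50612024 on the minus strand. Capitals mark matches to the motifs searched, which lie in both directions.
SOCS1: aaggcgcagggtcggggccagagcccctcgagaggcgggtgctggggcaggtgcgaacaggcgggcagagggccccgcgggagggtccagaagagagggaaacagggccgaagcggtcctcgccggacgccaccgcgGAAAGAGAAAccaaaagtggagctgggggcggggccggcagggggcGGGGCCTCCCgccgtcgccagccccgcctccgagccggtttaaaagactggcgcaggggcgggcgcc
CISH: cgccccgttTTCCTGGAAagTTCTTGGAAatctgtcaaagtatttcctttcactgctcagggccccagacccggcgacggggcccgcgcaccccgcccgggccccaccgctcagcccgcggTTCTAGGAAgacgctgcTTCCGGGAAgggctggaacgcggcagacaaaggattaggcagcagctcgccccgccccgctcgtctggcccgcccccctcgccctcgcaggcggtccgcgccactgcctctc
The motifs were the GAS letters TTCNNNGAA, the letters GAAANNGAAA of interferon-response elements, and the κB consensus by name, each on both strands. The CISH window held 4 GAS matches, TTCCTGGAA, TTCTTGGAA, TTCTAGGAA and TTCCGGGAA, none overlapping another. The SOCS1 window held 1 interferon-response match, GAAAGAGAAA, and 1 κB match, GGGGCCTCCC. The only other match in the members' windows was a κB match, GGGGGACCCC, at 1 of the start sites of STAT5A. Among 35114 windows of the same length, 6.57% held a GAS match, 3.02% an interferon-response match and 9.96% a κB match. A match describes the letters of these windows and is not a measured binding site.

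The arrays were checked first. The IKBKB probe set 211027_s_at read 11.11 and 9.33 in the combination, 12.57 and 10.98 with IKKβ(EE), 4.68 and 4.60 with IRF5-4D and 4.80 and 4.06 in mock cells. IKBKB probe sets 209341_s_at and 209342_s_at did not pass. They read 0.16 and 0.04 above mock in the combination and 0.14 and 0.03 with IKKβ(EE). Among 3 IRF5 probe sets, 1 (205469_s_at) rose in the combination by 0.92 (SE 0.13, limma adjusted p = 0.00586) and 0 passed with IRF5-4D alone. Probe set 205468_s_at read 5.65 and 5.66 with IRF5-4D, 5.56 and 5.60 in the combination, 5.125 and 5.04 with IKKβ(EE) and 5.355 and 4.82 in mock cells. With IRF5-4D alone it read 0.57 above mock (SE 0.17, limma adjusted p = 0.701), and the other IRF5 probe sets read 0.20 and 0.05. It is not known whether the IRF5 probe sets lie in the transfected sequence, so the IRF5-4D label was not checked. Of 10 measured precursor B-cell markers 9 lay above the upper quartile of all probe sets, while 8 of 8 T and NK cell markers and 6 of 8 myeloid markers lay below the median, as did 4 of 6 stromal markers. Of these 4 lists only NKG7 was called in any comparison, at 1.34 above mock in the combination, and the mean level of the T and NK list was 4.58 and 4.71 in the combination against 4.51 and 4.58 in mock cells. Within each group the arrays correlated at 0.994 or more over the probe sets. In the combination, array 1 read higher than array 3 for 78.1% of the 840 probe sets above mock, against 49.1% of all probe sets. For IKBKB probe set 211027_s_at array 1 read 1.77 above array 3. The part of this gap in the results below was not tested. In bulk RNA, a change in few cells and a smaller change in every cell cannot be told apart.

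JAK1 and SOCS1 showed the firmest changes. In the combination, 6 of 30 probe sets of 4 genes (JAK1, STAT3, SOCS1 and SOCS2) rose against mock and 0 fell in limma at an adjusted p under 0.05, where 2.04% of all probe sets rose and 0.509% fell. With IKKβ(EE) alone 1 of 30 rose, for SOCS1, where 0.37% of all probe sets rose. With IRF5-4D alone 0 of 30 passed in limma, where 0.243% of all probe sets did, and 4 had an unadjusted p under 0.05, where 5.16% of all did. Both combination arrays lay above both mock arrays for 19 of 30 probe sets (18.1% of all), both IKKβ(EE) arrays for 12 (15% of all) and both IRF5-4D arrays for 8 (14.4% of all). Both arrays lay below both mock arrays for 1 of 30 in the combination (25.6% of all), for 2 with IKKβ(EE) (20.9% of all) and for 6 with IRF5-4D (17.4% of all). The median change of the 30 was 0.32 in the combination, 0.10 with IKKβ(EE) and 0.06 with IRF5-4D, beside medians of -0.03, -0.02 and -0.01 over all probe sets. These 3 comparisons share the mock arrays. With any 1 array left out, the count in the combination ranged from 3 to 6.

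**Figure D1:**
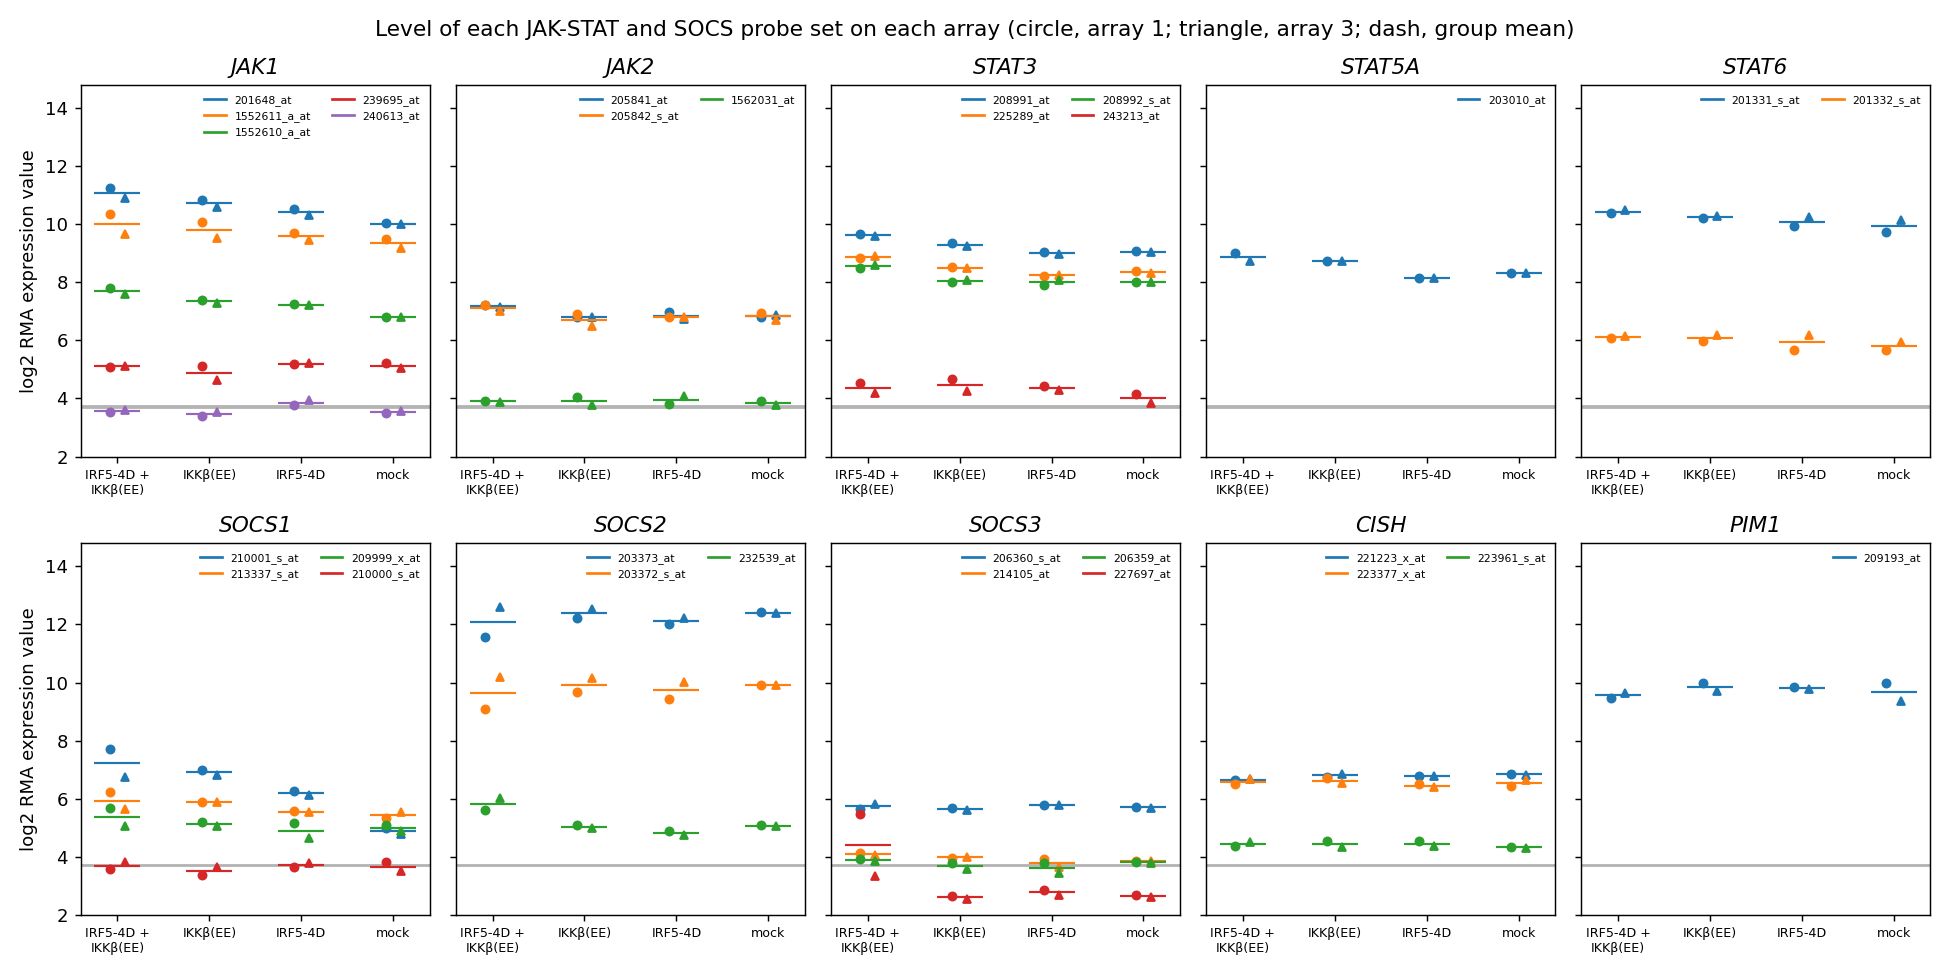
Log2 RMA value of each of the 30 probe sets (colours) on each of the 8 arrays, by gene and group, with circles for array 1, triangles for array 3 and a dash at the group mean. The grey band is the lower quartile of the arrays, 3.67 to 3.73. SOCS1 probe set 210001_s_at lies below 5 in mock cells and above 6 in all 3 other groups, while the brightest SOCS2 probe set and PIM1 overlap between combination and mock.

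JAK1, the kinase shared by receptors of the gp130, common gamma chain and interferon families, was highest in the combination. Its probe set 201648_at read 11.24 and 10.92 in the combination, 10.85 and 10.60 with IKKβ(EE), 10.54 and 10.32 with IRF5-4D, and 10.04 and 9.99 in mock cells. No array of a construct group fell into the range of the mock arrays. The rise in the combination was 1.06 (SE 0.15), which is 2.09-fold (limma adjusted p = 0.00637). It also passed in all 8 fits without 1 array, at an adjusted p of 0.00807 to 0.0484.

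A second JAK1 probe set, 1552610_a_at, followed the same order of groups. It read 7.81 and 7.60 in the combination, 7.40 and 7.30 with IKKβ(EE), 7.25 and 7.22 with IRF5-4D, and 6.81 and 6.80 in mock cells, a rise of 0.90 (SE 0.12) or 1.87-fold in the combination (limma adjusted p = 0.00493), which also kept its call without any 1 array. On 201648_at the single constructs read 0.71 (SE 0.15, adjusted p = 0.148) with IKKβ(EE) and 0.41 (SE 0.15, adjusted p = 0.907) with IRF5-4D, and neither passed. The sum of these changes was 1.12, and the interaction, the part of the combination's change beyond that sum, was -0.06 (SE 0.21, adjusted p = 0.988).

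The other JAK1 probe sets did not pass. Probe set 1552611_a_at read 0.67 (SE 0.25) above mock in the combination, with arrays at 10.36 and 9.66 against 9.48 and 9.20 in mock cells. Probe sets 239695_at and 240613_at, with mean levels of 5.08 and 3.61, read -0.02 and 0.02 in the combination. The rise thus passed on 2 of the 3 JAK1 probe sets above the median level.

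JAK2, the kinase of the erythropoietin and growth hormone receptors, did not pass in any comparison. Probe set 205841_at read 7.23 and 7.16 in the combination, 6.82 and 6.80 with IKKβ(EE), 6.98 and 6.73 with IRF5-4D, and 6.79 and 6.89 in mock cells. Both combination arrays lay above the other 6 by a small margin. The difference from mock was 0.36 (SE 0.13, adjusted p = 0.215), with an unadjusted 95% interval of 0.07 to 0.64. The other probe sets of JAK2 read 0.28 and 0.06.

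STAT3, which carries signals of interleukins 6, 10 and 21, was higher in the combination on probe sets that did not overlap with any other group. Probe set 208991_at read 9.68 and 9.58 in the combination, 9.36 and 9.25 with IKKβ(EE), 9.03 and 8.98 with IRF5-4D, and 9.06 and 9.05 in mock cells. It rose by 0.58 (SE 0.11) or 1.49-fold in limma (adjusted p = 0.0334). Probe set 225289_at read 8.84 and 8.91 in the combination, against 8.38 and 8.31 in mock cells, a rise of 0.53 (SE 0.11, limma adjusted p = 0.0413). Probe set 208992_s_at read 0.54 above mock and just missed the threshold (adjusted p = 0.0564), and the dimmest, 243213_at, read 0.34.

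The size of the STAT3 difference varied little between fits, but its call did not hold. Without any 1 array the difference on 208991_at ranged from 0.52 to 0.63, but its adjusted p was 0.0618 to 0.16 and 0 of the 8 fits called it, and the same held for 225289_at (0.50 to 0.57, adjusted p 0.0728 to 0.154). Against IRF5-4D alone, STAT3 was higher in the combination by 0.62 and 0.64 (limma adjusted p = 0.0418 and 0.0331), calls that 0 and 2 of those 8 fits kept. Against IKKβ(EE) alone the same probe sets read 0.33 and 0.38 (adjusted p = 0.289 and 0.192), and the interaction, 0.38 and 0.48, did not pass (adjusted p = 0.762 and 0.588).

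STAT5A, a STAT of signalling by interleukin 2 and other common gamma chain cytokines, lies next to STAT3 on chromosome 17 in the RefSeq order, with STAT5B on its other side. Its only probe set read 9.02 and 8.73 in the combination, 8.73 and 8.75 with IKKβ(EE), 8.16 and 8.16 with IRF5-4D, and 8.33 and 8.31 in mock cells. The arrays with IKKβ(EE), alone or in the combination, formed the upper 4 values, and those with IRF5-4D alone the lowest. The difference of the combination from IRF5-4D alone was 0.72 (SE 0.13) or 1.64-fold, which passed in limma (adjusted p = 0.0362) but in 1 of the 8 fits without 1 array. Against mock it read 0.55 (SE 0.13, adjusted p = 0.0615) in the combination, 0.41 (adjusted p = 0.476) with IKKβ(EE) and -0.16 (adjusted p = 0.982) with IRF5-4D. STAT5B read 0.36 (adjusted p = 0.195) in the combination.

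STAT6, the STAT of interleukins 4 and 13, did not pass in any comparison. Probe set 201331_s_at read 10.40 and 10.48 in the combination, 10.20 and 10.28 with IKKβ(EE), 9.94 and 10.24 with IRF5-4D, and 9.72 and 10.16 in mock cells. Its mock arrays were 0.44 apart on the values given, and the difference of 0.50 (SE 0.17, adjusted p = 0.189) was close to that gap. The other probe set read 0.30 in the combination.

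SOCS1, which binds JAKs and blocks their catalytic site, had the largest change of the 10 genes. Probe set 210001_s_at read 7.70 and 6.74 in the combination, 6.99 and 6.82 with IKKβ(EE), 6.27 and 6.11 with IRF5-4D, and 4.996 and 4.800 in mock cells. The mock arrays were lowest, the IRF5-4D arrays next, and the arrays of the other groups overlapped above them. The rise was 2.32 (SE 0.26) or 5.0-fold in the combination (limma adjusted p = 0.00156) and 2.01 (SE 0.26) or 4.02-fold with IKKβ(EE) (limma adjusted p = 0.0141). With IRF5-4D it read 1.29 (SE 0.26) above mock and did not pass over all probe sets (adjusted p = 0.18).

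The call of SOCS1 in the combination held in each of the 8 fits without 1 array, with values from 1.84 to 2.80, the lowest without combination replicate 1. The call with IKKβ(EE) was kept in 2 of 8, those without an array of the combination, with values from 1.91 to 2.10 and an adjusted p up to 0.194. With IRF5-4D the value of 1.29 was called when either array of the combination was left out (adjusted p = 0.00672). The combination did not differ from IKKβ(EE) alone past the test (0.32, SE 0.26, adjusted p = 0.781, unadjusted 95% interval -0.27 to 0.90). It read 1.03 above IRF5-4D alone (adjusted p = 0.122). The sum of the single changes was 3.30, and the interaction was -0.98 (SE 0.37, adjusted p = 0.686).

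The 4 SOCS1 probe sets disagreed. Probe set 213337_s_at read 6.22 and 5.64 in the combination, 5.90 and 5.89 with IKKβ(EE), 5.56 and 5.54 with IRF5-4D, and 5.34 and 5.54 in mock cells, a difference of 0.48 (SE 0.18, adjusted p = 0.24) in the combination. The order of the groups was as on 210001_s_at. Probe sets 209999_x_at, which may bind several transcripts, and 210000_s_at, near the lower quartile of the arrays, read 0.39 and 0.03. Which parts of the transcript each probe set covers was not examined.

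**Figure D2:**
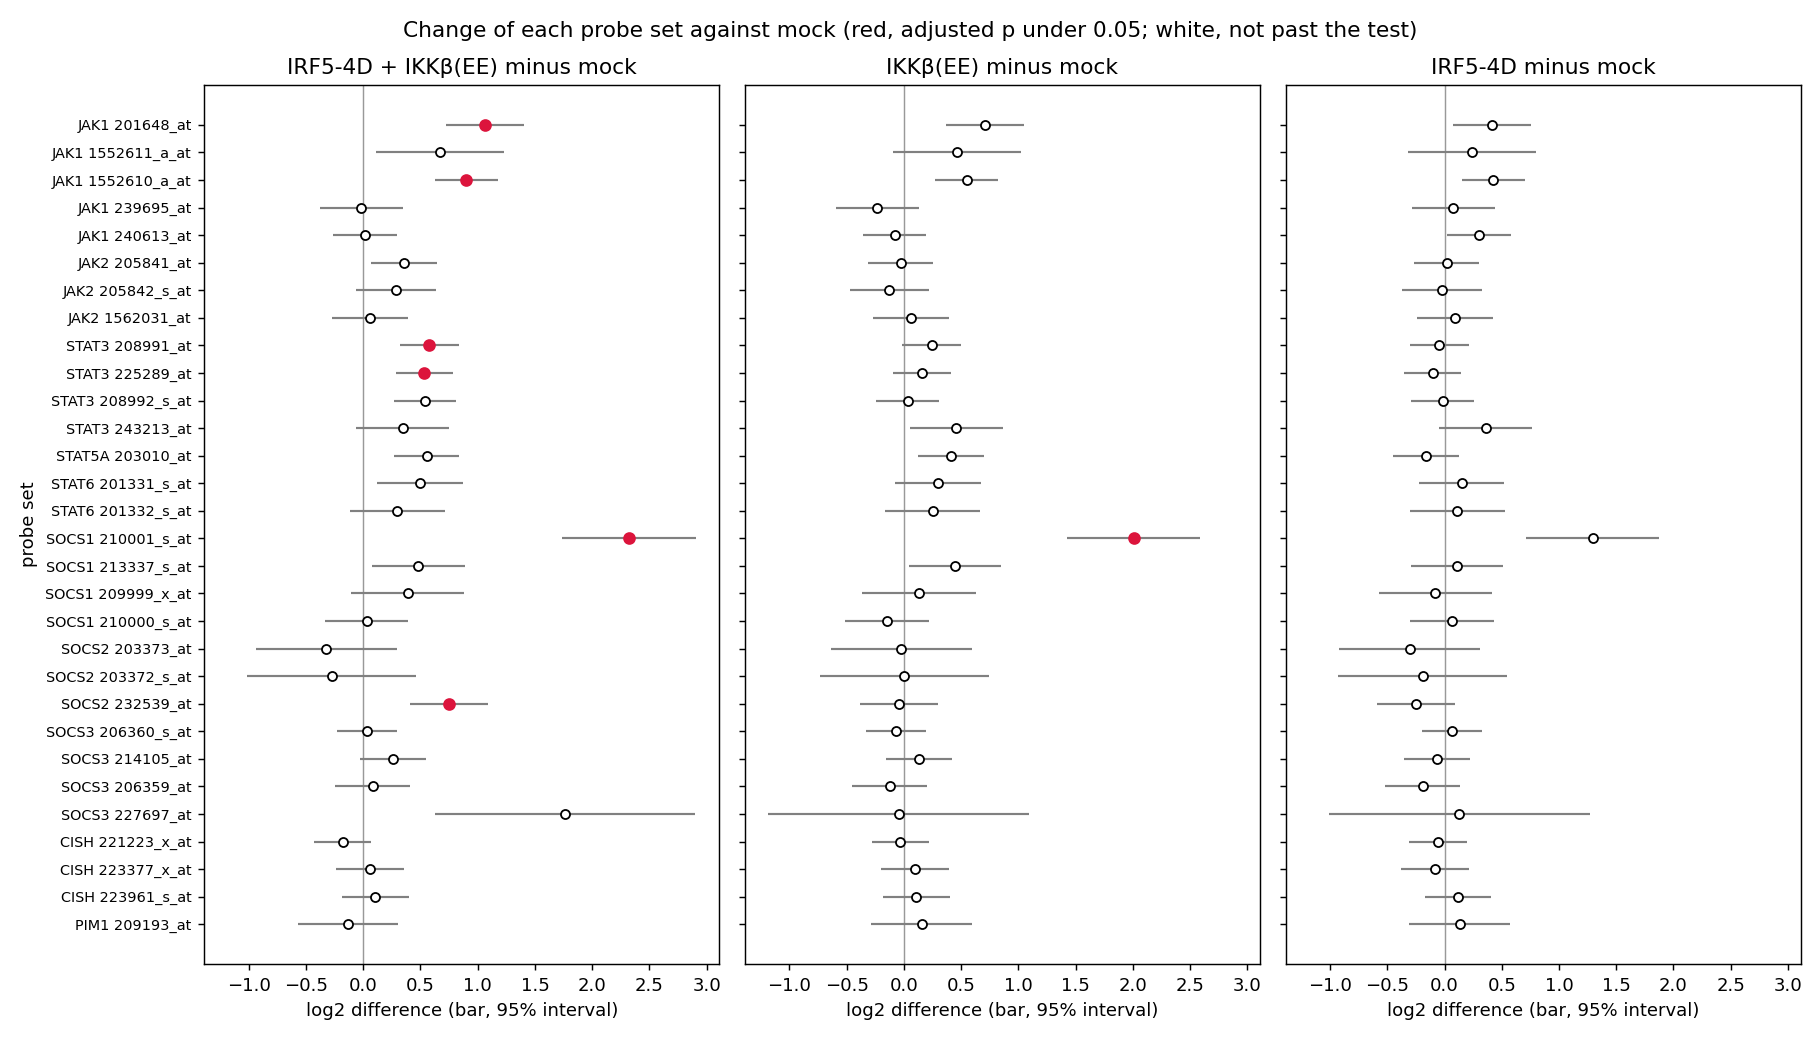
Log2 difference from mock of each probe set (rows) in the combination, with IKKβ(EE) and with IRF5-4D, with unadjusted 95% intervals from limma. Red points passed at an adjusted p under 0.05: 6 in the combination, 1 with IKKβ(EE) and 0 with IRF5-4D.

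SOCS2, an inhibitor of growth hormone signalling, gave opposite signs on its probe sets. The brightest, 203373_at, read 11.58 and 12.59 in the combination, 12.22 and 12.55 with IKKβ(EE), 12.00 and 12.21 with IRF5-4D, and 12.42 and 12.40 in mock cells. The combination arrays lay on either side of mock, and the difference of -0.32 (SE 0.27, adjusted p = 0.648) did not pass. Probe set 203372_s_at read likewise, with -0.28 in the combination.

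The dim SOCS2 probe set 232539_at rose in the combination. It read 5.61 and 6.03 in the combination, 5.08 and 4.98 with IKKβ(EE), 4.90 and 4.74 with IRF5-4D, and 5.09 and 5.05 in mock cells. The rise was 0.75 (SE 0.15, limma adjusted p = 0.0369) against mock, 0.79 (limma adjusted p = 0.0409) against IKKβ(EE) and 1.0 (limma adjusted p = 0.0171) against IRF5-4D. With 1 array left out these calls were kept in 1, 1 and 5 of 8 fits, and the value against mock ranged from 0.54 to 0.96. Its interaction of 1.04 (SE 0.21) did not pass (adjusted p = 0.221). Since the bright probe sets did not move with it, the value is that of the probe set and not of SOCS2 as a whole.

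SOCS3, the inhibitor that acts on gp130 receptors, was high on a single array. Probe set 227697_at read 5.46 and 3.35 in the combination, 2.65 and 2.54 with IKKβ(EE), 2.85 and 2.69 with IRF5-4D, and 2.68 and 2.61 in mock cells. Combination array 1 stood 2.11 above array 3, and the array gap in IKBKB probe set 211027_s_at had the same sign. The part of that gap in the SOCS3 value was not tested. The difference from mock was 1.76 (SE 0.51) and did not pass in limma (adjusted p = 0.126). Without combination replicate 3 it was 2.82 and passed (adjusted p = 4.2e-05), and without combination replicate 1 it was 0.71. The levels in mock cells lie below the lower quartile of the arrays, which leaves the fold of SOCS3 uncertain. The other 3 SOCS3 probe sets read 0.03, 0.26 and 0.08 in the combination.

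CISH, the founding member of the family and a target of STAT5, did not pass in any comparison. Probe set 221223_x_at read 6.65 and 6.67 in the combination, 6.76 and 6.86 with IKKβ(EE), 6.77 and 6.79 with IRF5-4D, and 6.84 and 6.83 in mock cells. The difference of -0.18 (SE 0.11, adjusted p = 0.498) had an unadjusted 95% interval of -0.43 to 0.07, which holds no 2-fold change in either direction. Its other probe sets, 223377_x_at and 223961_s_at, read 0.06 and 0.11. The 2 CISH probe sets marked _x_at may bind several transcripts. This is the gene whose window above held 4 GAS matches.

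PIM1, a serine/threonine kinase gene switched on by STAT3 and STAT5, read 9.46 and 9.65 in the combination, 9.97 and 9.72 with IKKβ(EE), 9.85 and 9.79 with IRF5-4D, and 9.998 and 9.379 in mock cells. The mock arrays spanned the range of all other arrays. The difference in the combination was -0.13 (SE 0.19, adjusted p = 0.819, unadjusted 95% interval -0.57 to 0.31).

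The combination was also set against the sum of the single constructs. No probe set of the 30 passed for the interaction in limma, where 0.0803% of all probe sets did, and 6 of 30 had an unadjusted p under 0.05, where 6.36% of all did. Besides SOCS1, SOCS2 and SOCS3 these were the 3 bright STAT3 probe sets. In direct comparison 4 of 30 probe sets rose in the combination against IRF5-4D alone, where 0.84% of all did, and 1 rose against IKKβ(EE) alone, where 1.06% did. In fits without 1 array these counts ranged from 0 to 3 and from 0 to 1.

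**Figure D3:**
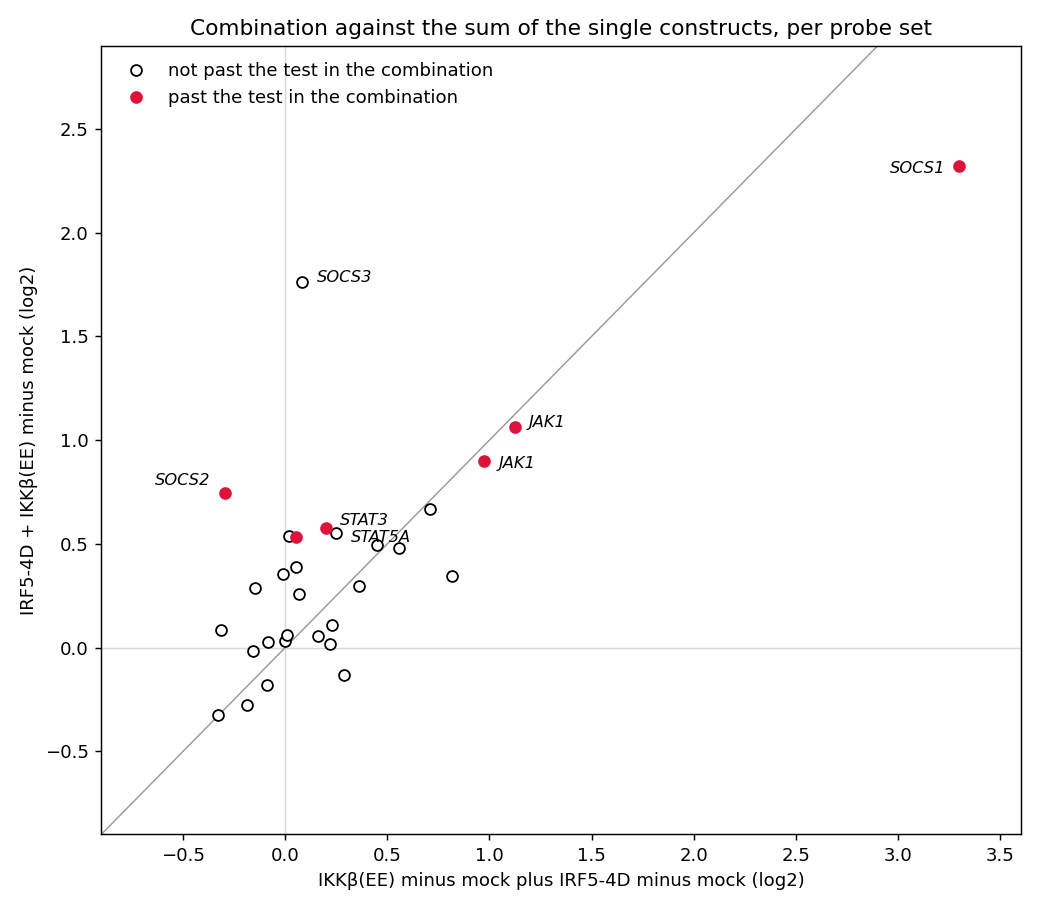
Log2 change of each probe set in the combination (vertical) against the sum of its changes with IKKβ(EE) and with IRF5-4D (horizontal), with a line where both are equal. Both axes use the same mock arrays. The labelled JAK1 probe sets lie close to the line, SOCS1 lies below it at 3.30 and 2.32, and the labelled SOCS2, SOCS3 and STAT3 probe sets lie above it, none with an interaction past the test.

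Genes with the most similar 3 changes against mock were named by the root mean square difference over those changes, at the brightest probe set of each gene. They were chosen for that likeness and the comparisons share the mock arrays, so it is a description. For JAK1 they were IL27RA (0.036), TAPBP (0.05) and IL6ST (0.065), and for SOCS1 they were CD83 (0.307), MAP3K8 (0.415) and CD70 (0.455). For STAT3 they were KDM6B, STK10 and TBC1D32, for STAT5A they were FOSL2, GAB1 and NCEH1, and for SOCS2 probe set 232539_at they were RAB39B, SIX4 and BBS10. IL27RA, named for JAK1, passed in no comparison itself, and its mock arrays lay apart at 5.36 and 6.545.

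Other genes of the pathway came from lists made from general knowledge, each gene at its brightest probe set. In the combination 2.52% of all genes rose at that probe set and 0.399% fell, with IKKβ(EE) 0.47% rose, and with IRF5-4D 0.298% passed. The 5 lists held 114 distinct measured genes, with IL10 and OSM in 2 lists each. With IRF5-4D 0 of the 114 passed in limma and 6 had an unadjusted p under 0.05, where 5.05% of all genes did. The other JAKs and STATs moved most often in the combination. Of 7 listed, 5 were measured and the others were not analysed here, and of the 5, 2 rose in the combination and 0 fell, with a list median of 0.53 beside -0.03 for all genes, and 1 rose with IKKβ(EE). IRF9, the DNA-binding partner of STATs in type I interferon signalling, read 8.50 and 8.98 in the combination, 7.09 and 7.05 with IKKβ(EE), 6.97 and 6.89 with IRF5-4D, and 6.97 and 6.61 in mock cells. It stood apart on both combination arrays, with a rise of 1.94 (SE 0.18) or 3.85-fold (limma adjusted p = 0.000484). JAK3, the kinase of the common gamma chain, rose by 1.12 in the combination on 1 of its 4 probe sets (kept in 5 of the 8 fits without 1 array), and TYK2, a kinase of interferon receptors, rose by 0.78 with IKKβ(EE), a call that 0 of the 8 fits without 1 array kept.

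Receptor chains rose in the combination in 7 of 38 genes and fell in 0 (list median 0.08), and 1 rose with IKKβ(EE). IL4R, the interleukin-4 receptor, read 6.80 and 6.85 in the combination, 6.53 and 6.71 with IKKβ(EE), 5.51 and 5.24 with IRF5-4D, and 5.39 and 5.32 in mock cells. Both groups with IKKβ(EE) lay above both groups without it, and the rise was 1.47 in the combination and 1.27 with IKKβ(EE) alone (limma adjusted p = 0.000462 and 0.00439). IL10RA, the interleukin-10 receptor chain that binds JAK1, read 6.99 and 6.37 in the combination, 4.12 and 4.15 with IKKβ(EE), 3.99 and 3.69 with IRF5-4D, and 4.13 and 4.10 in mock cells. It was above 6 only in the combination, and its rise of 2.56 (SE 0.19) was 5.91-fold (limma adjusted p = 0.000176). IL15RA rose by 1.21, IL6ST (gp130) by 1.14, the common gamma chain IL2RG by 1.03 and the interferon gamma receptor chain IFNGR2 by 0.94 in the combination, and IL10RB, named after its value was seen, by 0.68. The IL6ST value comes from the 1 of its 7 probe sets that passed. With 1 array left out, the call of IL6ST was kept in 5 of 8 fits and that of IL10RB in 1 of 8.

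Of 34 cytokines that signal through JAKs, 4 rose in the combination and 0 fell (list median 0.03), and 2 rose with IKKβ(EE). EBI3, a subunit of interleukins 27 and 35, rose by 6.22 (SE 0.34) in the combination and by 3.38 with IKKβ(EE). IL12A, which encodes the p35 subunit of interleukins 12 and 35, read 10.68 and 9.42 in the combination, 6.05 and 6.02 with IKKβ(EE), 7.46 and 6.94 with IRF5-4D, and 5.78 and 5.83 in mock cells. Both combination arrays were the highest by a wide margin, with a rise of 4.25 (SE 0.33) or 19.0-fold (limma adjusted p = 0.000212), while IRF5-4D alone read 1.40 and did not pass (adjusted p = 0.399). LIF, a ligand of gp130 receptors, rose by 2.14 in the combination, and IL15 rose by 1.29 there and by 0.99 with IKKβ(EE), the second call kept in 2 of the 8 fits without 1 array.

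Of 16 measured genes listed as negative regulators outside the 10, 0 rose and 1 fell in the combination (list median 0.04). The list held SOCS, PIAS and phosphatase genes as well as CBL and USP18. PIAS2, an inhibitor of STAT activity, fell by 0.96 (SE 0.18, limma adjusted p = 0.0228), with 3 of its 9 probe sets past the test. Its call was kept in 6 of the 8 fits without 1 array. Of 23 other STAT target genes, 6 rose and 1 fell in the combination (list median 0.37), and 2 rose with IKKβ(EE). Those named were the cyclins CCND2 by 4.69 and CCND1 by 1.67, the adhesion molecule ICAM1 by 2.47, the angiogenic factor VEGFA by 1.72, the checkpoint ligand CD274 by 1.27 and the AP-1 subunit JUNB by 0.97 in the combination. The gene that fell was BCL6, a transcriptional repressor that acts in germinal centre B cells, named after its value was seen, which fell by 0.75. The probe sets of some of these genes disagreed, with 1 of 4 past the test for VEGFA, 1 of 2 for CD274, 2 of 4 for CCND2 and 2 of 3 for ICAM1. Several of these, such as ICAM1, are also known NF-κB targets. Of these named targets, ICAM1 at 2.51 and CCND2 at 2.04 also rose with IKKβ(EE). Several of the target calls depended on 1 array. Of the 8 fits without 1 array, 1 kept the call of JUNB in the combination (adjusted p up to 0.182), 2 those of VEGFA and BCL6, and 6 those of CCND1 and CD274. With IKKβ(EE), 6 kept the call of ICAM1 and 2 that of CCND2.

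Against the single constructs the lists gave fewer calls. Of the 114 genes, 9 rose and 1 fell in the combination against IKKβ(EE) alone, where 1.27% of all genes rose and 0.319% fell. The gene that fell was PIM3, a kinase related to PIM1 and named after its value was seen, at -0.65 (limma adjusted p = 0.0251), a call kept in 2 of the 8 fits without 1 array. Against IRF5-4D alone 14 rose, where 1.08% of all genes did. IRF9, IL12A, EBI3, LIF, IL10RA, IL15RA, CCND2 and CD274 rose against both. IL10RA read 2.54 above IKKβ(EE) alone and 2.84 above IRF5-4D alone, and IRF9 read 1.67 and 1.81. The calls of IL10RA were kept in all 8 fits without 1 array in both comparisons, and those of IL15RA in 5 of 8 in each.

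**Figure D4:**
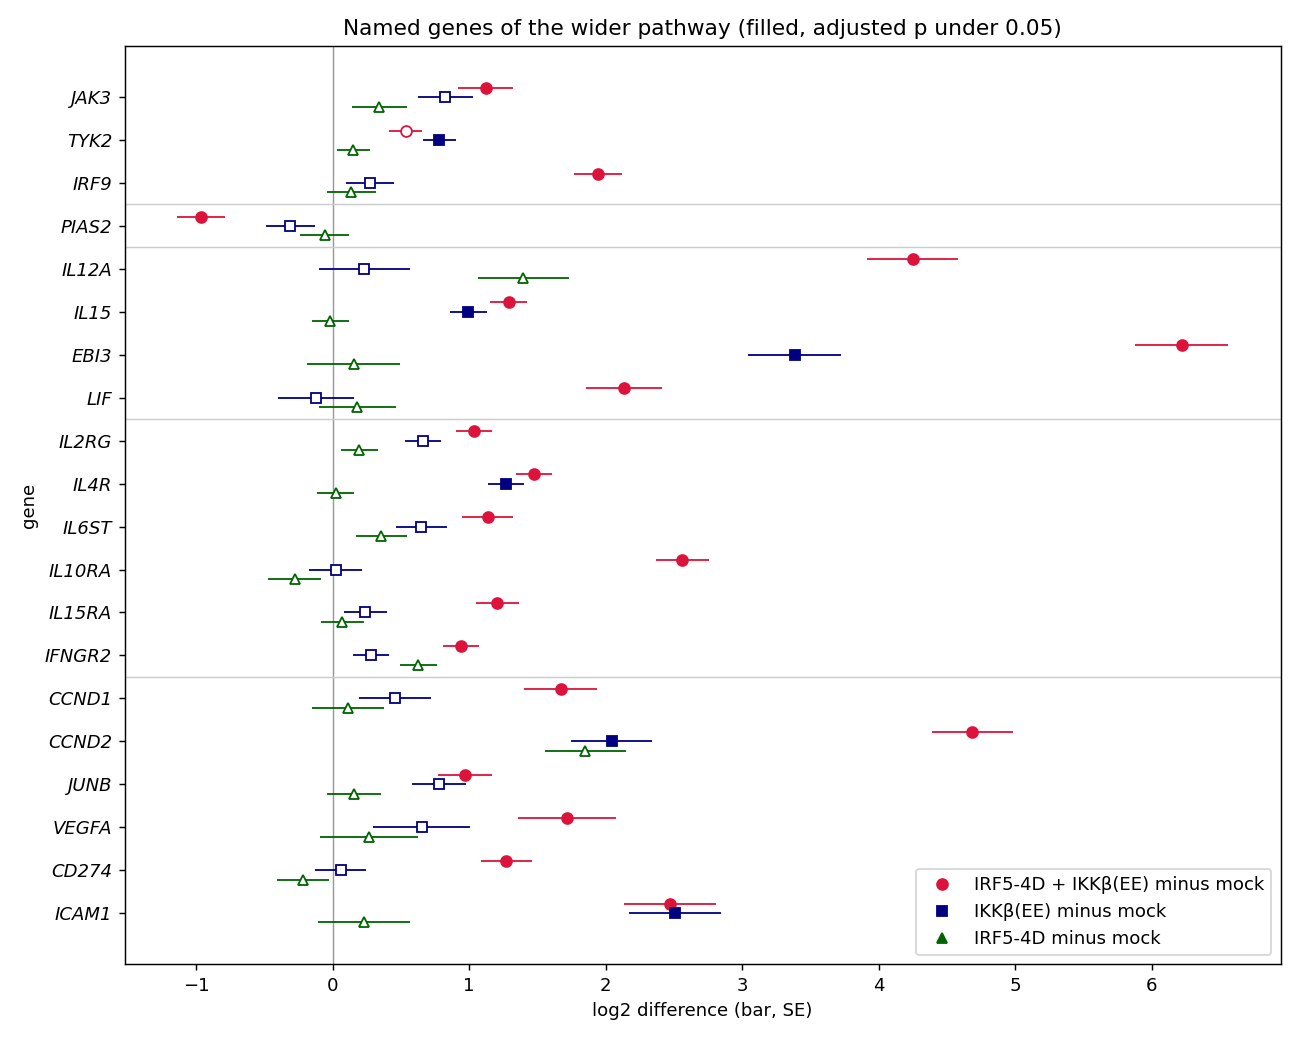
Log2 difference from mock (point) with SE (bar) of the named genes outside the 10, grouped by list, in the combination (red circles), with IKKβ(EE) (blue squares) and with IRF5-4D (green triangles). Filled points passed at an adjusted p under 0.05, and EBI3 at 6.22, CCND2 at 4.69 and IL12A at 4.25 lie farthest right.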

How the data were processed

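Expression was measured on 8 Affymetrix U133 Plus 2.0 arrays of 4 groups, taken from the sample labels. The authors deposited RMA values on a log2 scale for every probe set, per the submitters' processing notes, with the RMA version and chip definition not given in the sources used here. Array medians lay between 5.10 and 5.14. Of 54675 probe sets, 62 controls and 13522 others without exactly 1 symbol in the platform annotation were left out. A single limma 3.58.1 model of 4 group means (R 4.3.3, lmFit and eBayes) was fitted to the remaining 41091 (residual degrees of freedom 4, prior 5.24), and p values were adjusted by Benjamini-Hochberg over all of them. A probe set was called at an adjusted p under 0.05. The design compared each construct and the combination with mock, the combination with each single construct, and the interaction. The 2 arrays of a group limit the precision. Named genes were the 10 members, IRF5, IKBKB, up to 6 called genes per list and the 3 most similar genes per called member. Members and lists were chosen with earlier results of these data known. The fit was also run on 10 simulated data sets. There it called 59.6% of added log2 changes of 1 and 94.3% of those of 2, in the combination against mock, with a mean of 6.5 false calls. The simulated noise was independent between arrays and probe sets, and changes were added to few probe sets and only in the combination. These rates therefore need not hold for the arrays here. Alternatives changed the probe sets, scaling, variance model, block, threshold and arrays.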

Additional observations from a re-analysis of the deposited data

Results flagged for a closer look

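In the fit of all arrays, the effect of IRF5-4D on IL10RA differed between cells with and without IKKβ(EE). Outside the combination IL10RA read 3.69 to 4.15, near the lower quartile of the arrays (3.67 to 3.73). That leaves the change without IKKβ(EE) uncertain. The interaction of IL10RA was 2.82 (SE 0.27, limma adjusted p = 0.0139), where the combination read 2.54 above IKKβ(EE) alone and IRF5-4D read -0.28 against mock. It kept its call in 4 of the 8 fits without 1 array, with values from 2.51 to 3.13. The cause was not tested. No probe set of the 10 genes had an interaction past the test with all arrays, and groups of 2 arrays are too small for a test of outlying arrays.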

How the results depend on the processing

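Of 12 calls of the 10 genes over all comparisons, 3 were kept in each of the 8 fits without 1 array (JAK1 on 2 probe sets and SOCS1 on 1, all in the combination against mock), and no called value changed sign under any alternative run. Of 50 calls of the wider pathway genes named here, 20 were kept in each of those fits. Such a fit holds 1 group with a single array, which is assumed to vary like the other groups. Levels near the lower quartile are not shown to lie above background.

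In the combination against mock, the 6 called member probe sets became 3 with 1 probe set per gene, 3 with array weights and 3 in a fit of only the 2 groups. With at least 2-fold required they became 2. The count was higher in other runs, at 8 with median centring, 8 at an adjusted p under 0.1 and 9 with the replicate number as a block. Of all probe sets, 1049 were called, and 625 with 1 probe set per gene, 484 with only the 2 groups, 578 with at least 2-fold, 1707 at an adjusted p under 0.1 and 558 to 889 without 1 array. With IKKβ(EE) against mock the 1 member call ranged from 0 to 1 without 1 array, and the 152 calls of all probe sets became 101 with only the 2 groups and 31 to 158 without 1 array. With IRF5-4D against mock the 0 member calls became 1 with only the 2 groups (SOCS1) and 0 to 1 without 1 array, and the 100 of all probe sets became 63 with 1 probe set per gene and 27 to 124 without 1 array.

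In the combination against IKKβ(EE), the 1 member call became 0 with 1 probe set per gene, above the median level, with only the 2 groups and with at least 2-fold, and 0 to 1 without 1 array. All probe sets gave 569 calls, and 340 with 1 probe set per gene, 271 with only the 2 groups, 356 with at least 2-fold, 952 at an adjusted p under 0.1 and 191 to 585 without 1 array. In the combination against IRF5-4D, the 4 member calls became 2 with 1 probe set per gene and 1 with limma trend. They became 0 with only the 2 groups and 0 with at least 2-fold. The count was higher at an adjusted p under 0.1 (6) and with the replicate number as a block (6). All probe sets gave 422, and 279 with 1 probe set per gene, 258 with only the 2 groups, 280 with at least 2-fold, 853 at an adjusted p under 0.1 and 60 to 443 without 1 array. For the interaction the 0 member calls ranged from 0 to 1 without 1 array (SOCS3 227697_at without combination replicate 3). The 33 of all probe sets became 0 above the median level, 60 at an adjusted p under 0.1 and 6 to 123 without 1 array. The cause of these changes was not tested.

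Arrays of the same number deviated from their group means with correlations of -0.059 to 0.327 over 6 pairs of groups. Only the pair of the combination and mock was negative. The titles repeat Reh1 and Reh3 in every group, but whether the numbers 1 and 3 pair the arrays was not tested. The main fit had no block, so its p values treat the arrays as unpaired. With the replicate number as a block, limma called 1639 probe sets in the combination against mock, 293 with IKKβ(EE) and 157 with IRF5-4D. It called 894 against IKKβ(EE) alone, 802 against IRF5-4D alone and 99 for the interaction. Each of these counts was above that of the main fit. Member calls with the block were 9 in the combination against mock, 2 with IKKβ(EE) and 1 with IRF5-4D. They were 1 against IKKβ(EE) alone, 6 against IRF5-4D alone and 0 for the interaction.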
